A study of Mus musculus with 2 samples.

Results

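Glomerular endothelial cells were taken from 2 single-cell libraries of mouse kidney as the barcodes that carried Ehd3 and other endothelial transcripts and no Plvap. A cell was kept when it had at least 200 genes, 500 to 150000 UMIs (unique molecular identifiers, each a counted transcript molecule) and at most 55% of its UMIs from mitochondrial genes. It was called endothelial when Pecam1, Kdr, Flt1, Emcn, Egfl7 and Cdh5 together gave at least 5 UMIs and at least 0.1% of its UMIs, when Ptprc was at 0, and when Lrp2 and Slc34a1 together stayed below that sum. Of these, cells with at least 1 Ehd3 UMI and 0 Plvap UMIs were called Ehd3-positive. The cells were thus chosen by their own measured UMIs of these 11 genes, which are described below and support nothing. There were 113 of them, 67 in the control and 46 in the ischemic library, of 25702 kept cells and 1678 endothelial cells. Another 275 control and 294 ischemic endothelial cells carried both Ehd3 and Plvap and were not counted as Ehd3-positive.

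The libraries were made from wildtype male C57BL/6J mice aged 19 weeks, with no transgene or deletion in either group. The ischemic kidney had its pedicle clamped for 27 minutes and was collected after 24 hours of reperfusion, and the control was the uninjured kidney of the opposite side. Each group was 1 kidney in 1 library, dissociated with liberase, hyaluronidase and trypsin and run on the 10x Genomics 3′ system. The scRNAseq was done to find which myeloid cells of the kidney carry the interleukin-1 receptor. With 1 library a group there is no replicate check and no test, and ischemia and library cannot be told apart. Levels are UMIs summed over the cells of a group per 1000000 UMIs of those cells (CPM). The 95% intervals (exact Poisson for levels, exact Clopper-Pearson for shares, exact conditional for ratios) cover counting error only, and cells of 1 library are not replicates.

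Glomerular endothelial cells line the filtering capillary tuft. Their fenestrae are open and sit on a basement membrane shared with podocytes, whose VEGF maintains them. Capillaries around the tubules have fenestrae closed by diaphragms built of Plvap (plasmalemma vesicle-associated protein). Ehd3, an EH-domain ATPase of endocytic recycling, is in the kidney largely a glomerular endothelial gene.

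The deposited matrices held 15110 control and 15257 ischemic barcodes with 142686238 and 142959737 UMIs. The Ehd3-positive cells held 476002 and 428809 UMIs. Their median depth was 5645 UMIs (range 1135 to 23587) in control and 6718 (992 to 60851) in ischemia, with medians of 5.39% and 4.60% mitochondrial UMIs. The 2 libraries shared 88 barcodes, none of them an Ehd3-positive cell. The deepest ischemic cell gave 14.2% of the ischemic UMIs and carried 1112 UMIs of proximal tubule markers and 25 of podocyte markers, whereas the deepest control cell gave 4.96% of the control UMIs.

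Ehd3 (ENSMUSG00000024065) lies at chr17:73804134-73832094 on the plus strand and Plvap (ENSMUSG00000034845) at chr8:71497765-71511752 on the minus strand of GRCm38 (GENCODE M21). Gata5, which encodes a zinc finger factor of the GATA family, lies at chr2:180325133-180334699 on the minus strand. The promoters of Ehd3, for which the cells are named, and of Gata5, a gene nearly absent from Plvap-positive cells below, are shown. Each is the 250 bases before the RefSeq start on GRCm38.p6, which differs from the outermost GENCODE start. The Ehd3 window is chr17:73804591-73804840 on the plus strand and the Gata5 window chr2:180334680-180334929 on the minus strand. Capitals mark a GATA-type motif, searched as AGATAA and AGATAG on both strands (reverse complements TTATCT and CTATCT).
Ehd3: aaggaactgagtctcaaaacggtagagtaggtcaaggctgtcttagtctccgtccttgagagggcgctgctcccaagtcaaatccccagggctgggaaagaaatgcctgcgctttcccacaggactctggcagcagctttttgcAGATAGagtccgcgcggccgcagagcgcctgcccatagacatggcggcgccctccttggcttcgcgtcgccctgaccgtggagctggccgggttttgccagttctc
Gata5: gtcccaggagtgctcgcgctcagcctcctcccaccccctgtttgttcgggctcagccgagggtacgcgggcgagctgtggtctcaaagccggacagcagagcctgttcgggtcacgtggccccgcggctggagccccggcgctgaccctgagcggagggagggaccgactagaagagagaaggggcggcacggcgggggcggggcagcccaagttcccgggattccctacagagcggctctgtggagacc
Ehd3 held 1 match, an AGATAG that begins 106 bases before the start, and Gata5 held none. Of 32851 RefSeq promoters of this length, 16.5% held at least 1 match. A match is only these letters in this window and shows no binding. Of 7 genes looked for in the promoter table, 4 were found. Of these 4, only Ehd3 and Gata5 are shown, and matches in the others are not described.

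The genes of the rule are given as a description. Ehd3 had 630 control and 454 ischemic UMIs, or 1324 and 1059 CPM. Per cell it ranged from 1 to 42 UMIs (median 6) in control and from 1 to 68 (median 4.5) in ischemia. Kdr, the main VEGF receptor, was at 1807 and 1798 CPM, and was detected in 63 of 67 and 39 of 46 cells. Egfl7, a secreted endothelial matrix factor, was at 1431 and 1126 CPM and Emcn (endomucin) at 3603 and 3223 CPM. Near the thresholds, 12 cells in each library had 1 Ehd3 UMI, and 4 control and 3 ischemic cells had 2. Another 12 control and 10 ischemic cells met every condition but for 1 Plvap UMI. The endothelial sum ranged from 6 to 218 and from 5 to 382 UMIs, and no cell stood just outside it with 4.

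The Ehd3-positive cells were 0.532% of kept control cells (95% interval 0.413 to 0.676) and 0.351% of kept ischemic cells (0.257 to 0.468). Within the endothelium they were 8.33% (6.52 to 10.5) and 5.26% (3.88 to 6.96). Cells with both Ehd3 and Plvap were 34.2% and 33.6% of the endothelium. After every cell was thinned to 1000 UMIs, 65 of 800 control endothelial cells (8.13%, 6.33 to 10.2) and 39 of 869 ischemic ones (4.49%, 3.21 to 6.08) met the Ehd3 and Plvap conditions, with 4 and 5 shallower cells left out. The share of cells with Ehd3 and no Plvap was lower in the ischemic library on each denominator. The intervals within the endothelium overlapped without thinning and parted with it. The thinned 65 and 39 included cells that had Plvap UMIs before thinning. Of the 67 control and 45 ischemic Ehd3-positive cells that could be thinned, 45 and 30 kept an Ehd3 UMI. The shares with and without thinning were thus not of the same cells. Endothelial cells as a whole were 6.39% and 6.66% of kept cells. Dissociation recovers cell types unequally and has no replicate here, so a share of cells recovered was measured and not a share of cells in the kidney.

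**Figure D1:**
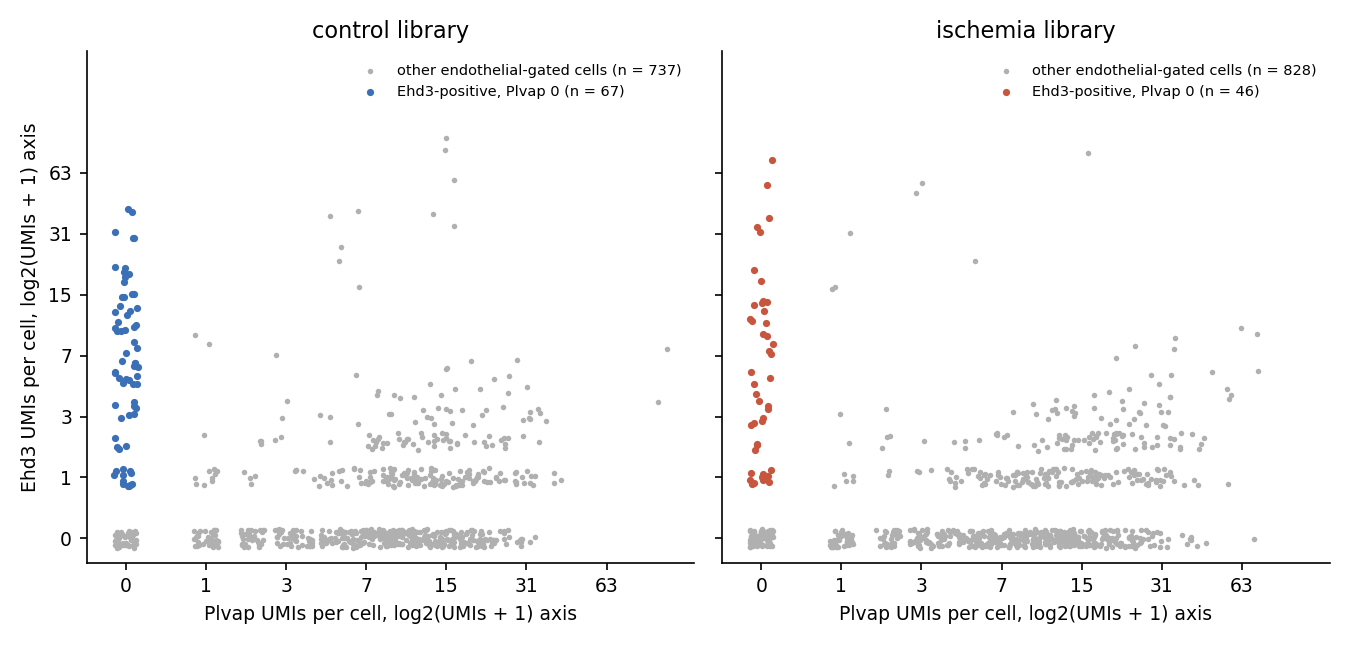
UMIs of Ehd3 and Plvap in each endothelial cell of the control and ischemic libraries, with the Ehd3-positive, Plvap 0 cells marked. The 67 control and 46 ischemic cells lie along Plvap 0, and 59 and 53 other cells hold at least 3 UMIs of each gene.

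Glomerular endothelial markers outside the rule were present in these cells. Plat, which encodes tissue plasminogen activator (chr8:22757727-22782844, plus strand), was detected in 63 of 67 control and 41 of 46 ischemic cells. It stood at 4302 CPM (4118 to 4493) and 4988 CPM (4779 to 5204), against 184 and 194 CPM in the Plvap-positive cells without Ehd3. Per cell, Plat ran from 0 to 11332 CPM (median 4136) in control and from 0 to 11773 (median 5006) in ischemia, with 4 and 5 cells at 0. The 2 libraries therefore covered nearly the same range.

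Pi16, a peptidase inhibitor gene, was at 584 and 401 CPM in Ehd3-positive and 84.1 and 60.0 CPM in Plvap-positive cells. Tbx3, a T-box repressor, was at 355 and 319 CPM against 42.3 and 29.7 CPM. Lpl (lipoprotein lipase) was at 689 and 732 CPM against 43.8 and 13.7 CPM. Gata5 had 64 UMIs in 30 control cells and 37 UMIs in 19 ischemic cells, but 0 and 1 UMIs among 409 and 468 Plvap-positive cells. By these markers the cells carried the glomerular endothelial pattern, with the exceptions described below.

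Free RNA in the droplets was gauged for Ehd3 and Plat in proximal tubule cells, which should lack both. After thinning to 1000 UMIs, Ehd3 was detected in 0.185% of control and 0.152% of ischemic tubule cells, and Plat in 0.473% and 0.266%. In the Ehd3-positive cells the thinned shares were 67.2% and 66.7% for Ehd3 and 89.6% and 80.0% for Plat. These cells were chosen for carrying Ehd3, so the Ehd3 shares in them are a description and support nothing. Only Plat, which lies outside the rule, can be set against its shares in tubule cells. Before thinning, the median depth of the tubule cells was 10105.5 and 21739.5 UMIs. Lpl was no such gauge, since tubule cells held it at 117 and 59.9 CPM, above the Plvap-positive endothelial cells.

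**Figure D2:**
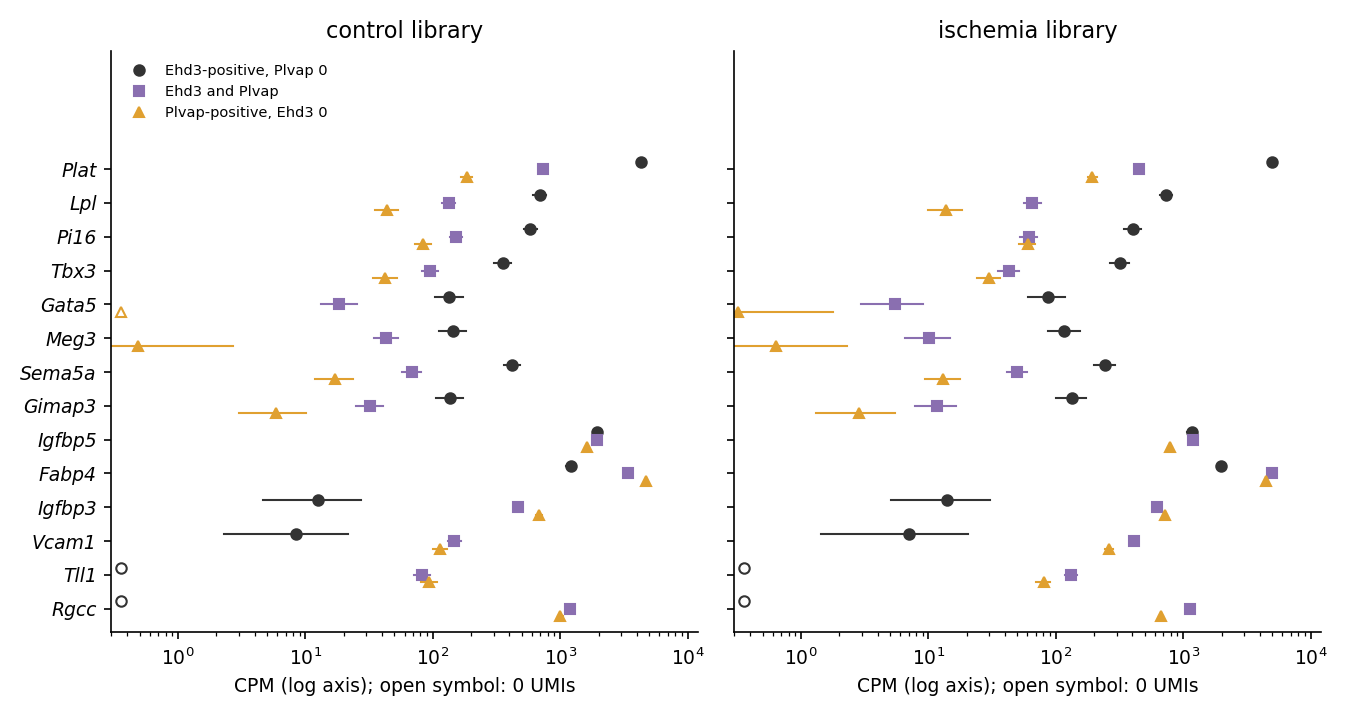
CPM (log axis) of glomerular and peritubular endothelial genes in Ehd3-positive, doubly positive and Plvap-positive cells of each library. Bars are 95% Poisson intervals and open symbols mark 0 UMIs. Plat lies at 4302 and 4988 CPM in Ehd3-positive and at 184 and 194 CPM in Plvap-positive cells, and Rgcc is at 0 UMIs in Ehd3-positive cells of both libraries.

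Against the 409 control and 468 ischemic Plvap-positive, Ehd3-negative endothelial cells, 6634 genes had at least 50 UMIs over both cell groups in each library and were compared. Of these, 131 were at least 2-fold higher in the Ehd3-positive cells in both libraries and 253 at least 2-fold lower. The comparison has no test, and the Plvap-positive cells were shallower, at medians of 3602 and 4438.5 UMIs. The 10 genes with the highest ratios, taken as the smaller of the ratios in the 2 libraries, were Meg3, Gimap3, Plat, Lpl, Sema5a, Adamts5, Tbx3os1, Tbx3, Gm6213 and Ccdc80. Gata5 was outside this ranking, since its 37 and 1 ischemic UMIs fell short of 50, although against a floor of 3 UMIs it was at least 92.2-fold higher in control. Plat was 23.3-fold higher in control and 25.7-fold in ischemia. Sema5a, a transmembrane semaphorin, was at 418 and 243 CPM against 17.0 and 13.1 CPM. Gimap3, an immune-associated GTPase, was at 137 and 133 CPM against 5.84 and 2.87 CPM. Meg3, a long noncoding RNA, came from few cells, since its 69 control UMIs lay in 10 cells and its 50 ischemic UMIs in 7. Tbx3os1 is antisense to Tbx3 and the annotated genes overlap at their ends. It was at 116 and 79.3 CPM against 9.24 and 5.43 CPM.

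The genes furthest below the Plvap-positive cells were led by Rgcc, a regulator of the cell cycle (chr14:79288756-79301645, minus strand). Rgcc had 0 UMIs in all 113 cells and stood at 1001 and 671 CPM in Plvap-positive cells. The floor of 3 UMIs used in ratios is 6.30 CPM in control and 6.996 in ischemia. Igfbp3, an insulin-like growth factor binding protein, had 6 UMIs in each library and was at 680 and 722 CPM in Plvap-positive cells. The adhesion molecule Vcam1 had 4 and 3 UMIs, against 115 and 261 CPM. Tll1, a tolloid-like metalloproteinase, had 0 UMIs in each library, below the same floor, against 93.9 and 80.2 CPM. Hpgd, Slit3, Ccdc85a, Mir99ahg, AW112010 and a copy of Ccl21a, whose reads may be shared with near-identical copies, completed the 10. Of the peritubular markers, Igfbp5 did not separate the cells, at 1939 and 1166 CPM against 1616 and 790 CPM. Fabp4, a fatty acid carrier, was at 1214 and 1966 CPM against 4696 and 4430 CPM.

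The Ehd3-positive cells were not uniform. They were split at 3 Ehd3 UMIs, a division chosen after the data were seen, into 51 control and 31 ischemic cells at or above it and 16 and 15 below it. The split also parts the cells by depth, with medians of 6118 and 7065 UMIs at or above it and 2409.5 and 6149 below it. Shares of cells with a gene detected move with depth. All 51 and 31 cells with at least 3 Ehd3 UMIs carried Plat, as did 12 of 16 and 10 of 15 of the others. Vim (vimentin, an intermediate filament protein) was at 38.0 and 74.8 CPM in cells with at least 3 Ehd3 UMIs and at 513 and 2346 CPM in cells with 1 or 2. Mgp (matrix Gla protein) was at 4.75 and 104 CPM against 752 and 2088 CPM. Cldn5, the tight junction claudin of arterial and other endothelium, was at 49.8 and 28.8 CPM against 91.7 and 663 CPM. Igfbp5 went the other way, at 2098 and 1422 CPM against 715 and 73.7 CPM. Gata5 had 1 of its 101 UMIs in the cells with 1 or 2 Ehd3 UMIs. These cells held 54553 of the 476002 control and 81412 of the 428809 ischemic UMIs.

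The Vim UMIs were concentrated in a few cells. At least 10 Vim UMIs were found in 2 control and 8 ischemic cells, of which 1 and 7 had only 1 or 2 Ehd3 UMIs. Of those 8 ischemic cells 5 had no Kdr UMI, and of the 2 control cells 0. Ehd3 and Kdr are genes of the rule, so these counts are a description and do not show which cells these were. Outside the rule, the 5 ischemic cells without Kdr had 19 to 56 UMIs of the 10 listed arterial genes and 0 to 9 of Plat. The control cell with 23 Vim UMIs had 58 arterial UMIs and 0 of Plat. A deeper ischemic cell with 68 Ehd3 and 117 Plat UMIs also had 47 arterial UMIs. Whether some of these cells were arterial was not tested. Plat, a marker outside the rule, was at 0 UMIs in 4 control and 5 ischemic cells, all with 1 or 2 Ehd3 UMIs. Where leaving out the cells with 1 or 2 Ehd3 UMIs took a named gene from at least 2-fold to short of 2-fold, the ratio without them is given below.

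**Figure D3:**
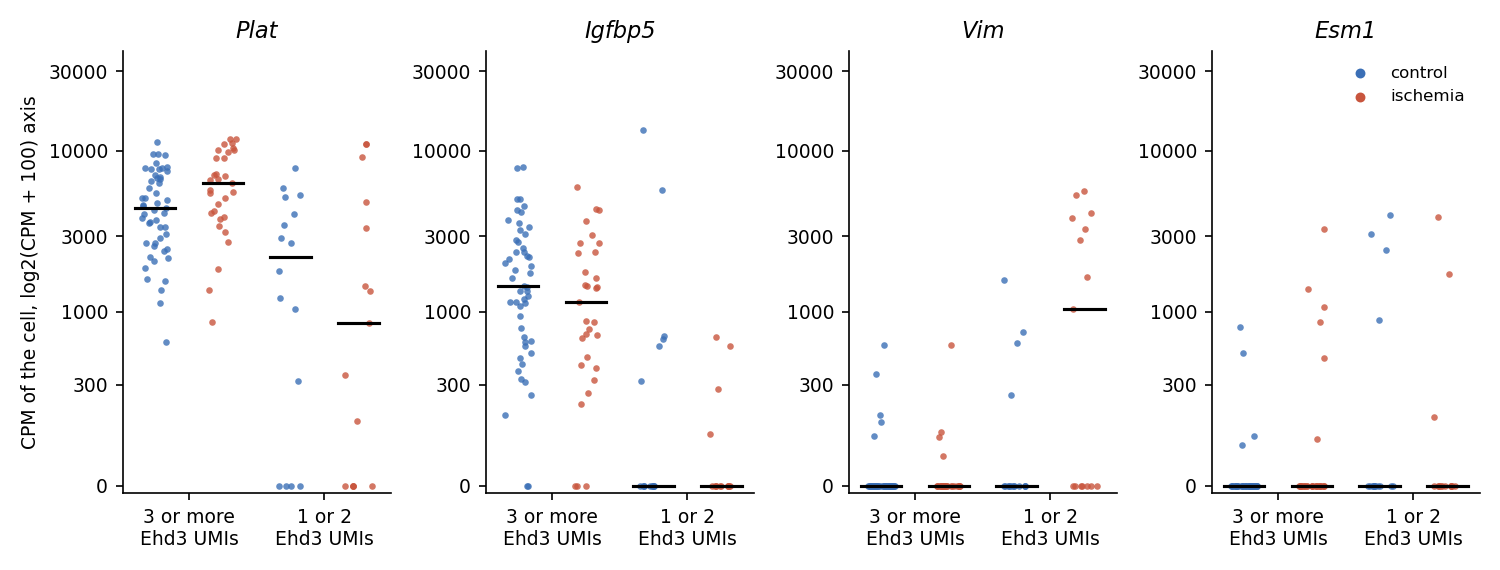
CPM of Plat, Igfbp5, Vim and Esm1 in each Ehd3-positive cell, by library and by at least 3 or 1 to 2 Ehd3 UMIs, with bars at the medians. Plat is spread over nearly all cells, and Vim is at 0 in most cells and high in a few, mainly ischemic cells with 1 or 2 Ehd3 UMIs.

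Between the libraries, 3071 genes with at least 50 UMIs in the Ehd3-positive cells were compared, of 14245 detected. In ischemia 65 of them (2.12%) were at least 2-fold higher and 37 (1.2%) at least 2-fold lower, and the median ratio over all 3071 was 1.06. Here "rose" and "fell" mean a change of at least 2-fold between these 2 libraries. Centred on the median ratio, 50 rose and 45 fell. Many calls rested on 1 cell. With the cell holding most UMIs of each gene left out, 31 rose, 26 of them among the 65, and 22 fell, 16 of them among the 37.

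The glomerular endothelial markers held their level or were moderately lower in ischemia. Of 16 listed markers 15 were compared, and 0 rose and 1 fell, with a median ratio of 0.787. Ehd3, Kdr and Egfl7 of this list are genes of the rule, and the median is the ratio of Egfl7. Plat had a ratio of 1.16 (95% interval 1.09 to 1.23) and Lpl of 1.06 (0.907 to 1.24). Gpihbp1, which anchors Lpl to the endothelial surface, was at 712 and 870 CPM, a ratio of 1.22. Lower values were those of Pi16 (0.687, 0.565 to 0.834), Hecw2, a ubiquitin ligase (0.705), Nostrin, which traffics endothelial nitric oxide synthase (0.732), Mapt (0.781), Fgf1 (0.824) and Tbx3 (0.900). Gata5 was at 134 and 86.3 CPM, a ratio of 0.642 (0.416 to 0.977), which became 0.712 (0.461 to 1.09) in cells with at least 3 Ehd3 UMIs. Smad6, an inhibitor of BMP signaling, was at 223 and 121 CPM, a ratio of 0.545 (0.383 to 0.766).

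The marker that fell was Cyp26b1, the retinoic acid hydroxylase (chr6:84571414-84593908, minus strand). It had 93 UMIs in 35 control cells and 33 UMIs in 15 ischemic cells, or 195 (158 to 239) and 77.0 CPM (52.97 to 108), a ratio of 0.394 (0.256 to 0.592). In cells with at least 3 Ehd3 UMIs the ratio was 0.368. Plvap-positive cells had 90.9 and 54.6 CPM, a ratio of 0.601 (0.485 to 0.743). Sost, which encodes the Wnt inhibitor sclerostin, had 40 UMIs in 12 control cells and 7 UMIs in 4 ischemic cells, a ratio of 0.194 (0.0734 to 0.438), below the 50 UMIs asked for.

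Of 14 listed coagulation and fibrinolysis genes 9 were compared, 0 rose and 2 fell, with a median ratio of 0.834, and Thbd is the falling gene described here. Thbd (thrombomodulin, which turns thrombin toward protein C activation) had 80 UMIs in 26 control cells and 31 in 21 ischemic cells. It was at 168 (133 to 209) and 72.3 CPM (49.1 to 103), a ratio of 0.430 (0.275 to 0.659), against 0.704 (0.619 to 0.802) in Plvap-positive cells. With Plvap allowed below Ehd3 the Thbd ratio was 0.526, and 0.744 after thinning.

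Of the 12 leukocyte adhesion genes 6 were compared and 0 rose or fell, with a median ratio of 0.912. Sele (E-selectin) had 172 UMIs in 25 control cells and 91 in 11 ischemic cells, at 361 and 212 CPM, a ratio of 0.587 (0.450 to 0.762), and 41.8% of the ischemic UMIs were in 1 cell. In Plvap-positive cells it was at 8.75 and 33.9 CPM, a ratio of 3.87 (2.33 to 6.78). Sele was thus higher in the Ehd3-positive cells of both libraries, by 41.3-fold in control and 6.27-fold in ischemia. Icam1 had a ratio of 0.862 (0.626 to 1.18).

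**Figure D4:**
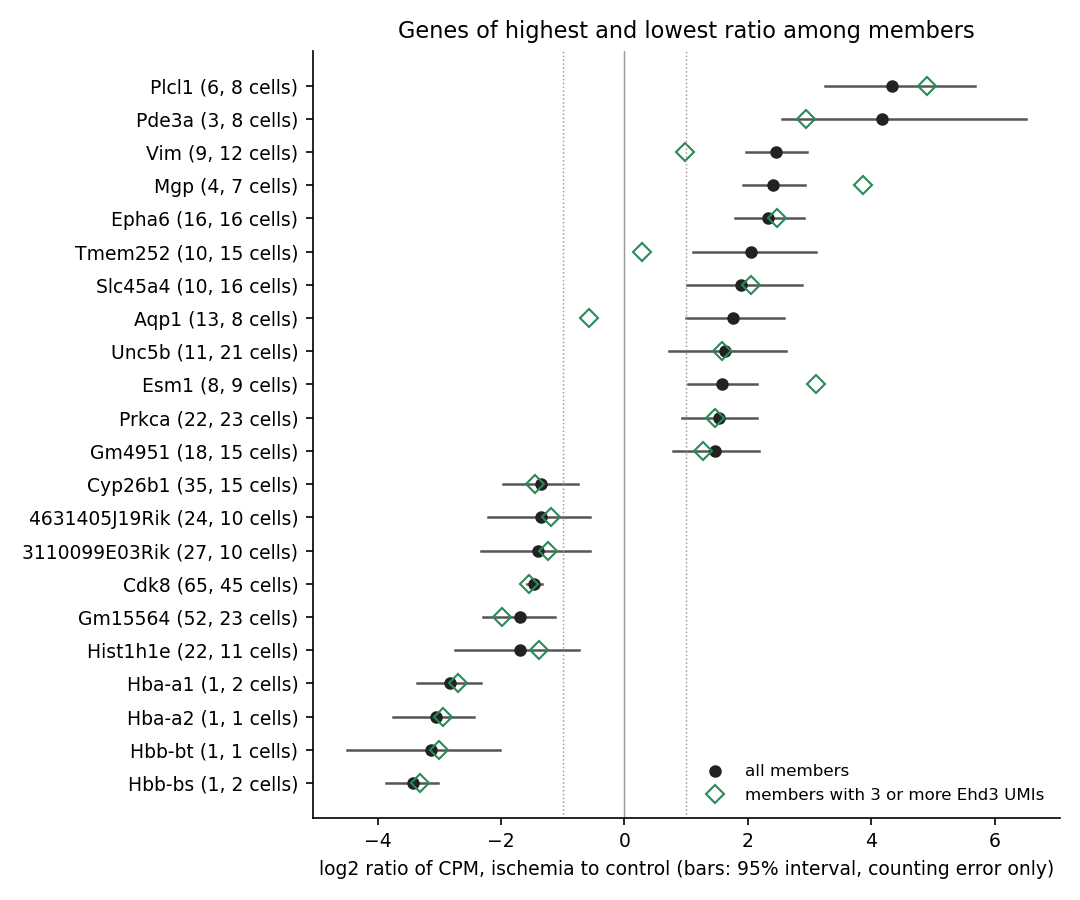
Log2 ratio of CPM, ischemia to control, of the 12 genes with the highest ratios and 10 of the 12 with the lowest, with 95% intervals and the number of cells with a UMI. Diamonds give the ratio in cells with at least 3 Ehd3 UMIs. Vim, Aqp1 and Tmem252 drop below 2-fold in those cells, whereas Cyp26b1 and Unc5b do not.

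Among the 12 genes with the highest ratios, Unc5b and Prkca were spread over the most ischemic cells. Unc5b, a netrin receptor of endothelial tip cells, had 14 UMIs in 11 control cells and 39 UMIs in 21 ischemic cells. It was at 29.4 and 91.0 CPM, a ratio of 3.09 (1.64 to 6.17), and 2.99 in cells with at least 3 Ehd3 UMIs. Prkca, a classical protein kinase C, had 33 UMIs in 22 control and 86 in 23 ischemic cells, a ratio of 2.89 (1.92 to 4.46). Slc45a4, a solute carrier, rose from 14 to 47 UMIs (10 and 16 cells, ratio 3.73), and the uncharacterized GTPase gene Gm4951 from 26 to 65 UMIs (18 and 15 cells, ratio 2.78). Unc5b had a ratio of 0.972 (0.719 to 1.32) in Plvap-positive cells. When Plvap was allowed below Ehd3 (82 and 56 cells), Unc5b had a ratio of 1.38, Pde3a of 1.52, Plcl1 of 0.928 and Prkca of 0.726, all short of 2-fold higher. After thinning, Slc45a4 had a ratio of 0.638 and Unc5b too few UMIs for a ratio.

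Other rising genes were carried by few cells. Epha6, an ephrin receptor, rose from 34 to 154 UMIs with 16 cells in each library, a ratio of 5.03 (3.45 to 7.52), but 50% of the ischemic UMIs were in 1 cell and the ratio without it was 2.59. Esm1, a proteoglycan of VEGF-activated endothelium, had 39 UMIs in 8 control and 105 in 9 ischemic cells, a ratio of 2.99 (2.05 to 4.43) that became 1.95 without its top cell. Plcl1 rose from 7 to 128 UMIs (6 and 8 cells), with 54.7% in 1 cell, and Pde3a from 3 to 49 UMIs (3 and 8 cells). Plcl1 had a ratio of 2.32 without the cells carrying at least 2 podocyte or mural UMIs (54 control and 31 ischemic cells remaining). Vim rose from 44 UMIs in 9 cells to 217 in 12, a ratio of 5.47 (3.94 to 7.75), and had a ratio of 1.97 (1.02 to 3.93) in cells with at least 3 Ehd3 UMIs. Mgp rose from 43 to 206 UMIs, of which 1 cell held 88.4% in control and 1 cell 74.3% in ischemia. Tmem252 (12 and 45 UMIs, ratio 4.16) and the water channel Aqp1 (19 and 58 UMIs, ratio 3.39) had ratios of 1.21 and 0.674 in cells with at least 3 Ehd3 UMIs.

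Among the 12 genes with the lowest ratios, Cdk8, a Mediator kinase, was the most abundant. It had 2205 UMIs in 65 control cells and 724 in 45 ischemic cells, at 4632 and 1688 CPM, a ratio of 0.364 (0.335 to 0.397). The ratio was 0.395 in Plvap-positive cells and 0.361 in cells outside the endothelium, and after thinning Cdk8 was detected in 84.4% and 58.0% of tubule cells. Gm15564, an antisense gene, was likewise low in all cells, with ratios of 0.310, 0.371 and 0.414 in the same order. The histone gene Hist1h1e (43 and 12 UMIs) had a ratio of 0.310, against 0.478 in Plvap-positive cells, and of 0.591 with Plvap allowed below Ehd3. The unnamed transcripts 3110099E03Rik and 4631405J19Rik had ratios of 0.378 and 0.392, and the latter had 51 and 18 UMIs here and 0 UMIs in control Plvap-positive cells.

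Arterial genes had a median ratio of 1.88, with 6 of 10 compared, 2 risen and 0 fallen. Cldn5 rose from 26 to 64 UMIs (2.73) and Fbln5, an elastic fiber protein, from 21 to 43 UMIs (2.27), but in cells with at least 3 Ehd3 UMIs their ratios were 0.578 and 0.910. In those cells Sox17, a factor of arterial fate, was at 171 and 48.9 CPM, a ratio of 0.286 (0.158 to 0.491), against 0.791 over all Ehd3-positive cells. The connexin gene Gja4 had a ratio of 1.87 (1.28 to 2.77). Efnb2, the arterial ephrin, was at 317 and 497 CPM, a ratio of 1.57 (1.27 to 1.94), against 0.630 (0.542 to 0.732) in Plvap-positive cells.

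The Notch genes (4 of 11 compared, 0 risen or fallen, median 1.36) included the receptor Notch1 at 1.60 (1.18 to 2.20), its ligand Dll4 at 1.61 (1.14 to 2.29) and the target Hes1 at 0.671 (0.5001 to 0.896). Of the VEGF and Tie receptor list 10 of 16 were compared, 1 rose (Esm1) and 0 fell, with a median of 1.17. Kdr and Flt1 of this list are genes of the rule. The VEGF co-receptor Nrp1 was at 1553 and 1546 CPM, a ratio of 0.996 (0.895 to 1.11), against 0.484 (0.442 to 0.530) in Plvap-positive cells. Tek, the angiopoietin receptor, was at 300 and 219 CPM, a ratio of 0.730 (0.556 to 0.953), against 0.648 in Plvap-positive cells. Of 15 pan-endothelial genes 14 were compared and 0 rose or fell, with a median of 1.08, but several of these are genes of the rule.

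Of the BMP and TGF-beta list 13 of 18 genes were compared, 1 rose and 0 fell, with a median of 0.909. Tgfbr3, the co-receptor betaglycan, rose from 16 UMIs in 14 cells to 34 in 17 cells, a ratio of 2.36 (1.27 to 4.58). The inhibitory Smad7 was, like Smad6, lower in ischemia, at 303 and 194 CPM, a ratio of 0.640 (0.482 to 0.844). Endoglin (Eng), a BMP9 co-receptor, had a ratio of 0.863 (0.762 to 0.977).

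In the list of EHD proteins, caveolae and glycocalyx, 12 of 19 genes were compared, 0 rose or fell and the median was 0.913. Ehd3 and Emcn of this list are genes of the rule. Cavin2, which shapes caveolae, was at 571 and 294 CPM, a ratio of 0.514 (0.413 to 0.637), just short of 2-fold, and 0.478 in cells with at least 3 Ehd3 UMIs, and was at 216 and 140 CPM in Plvap-positive cells. Podxl (podocalyxin, a negatively charged surface sialoprotein) was at 515 and 326 CPM, a ratio of 0.634 (0.512 to 0.784), against 0.589 in Plvap-positive cells. Of 18 junction and cytoskeleton genes 17 were compared, 2 rose (Cldn5 and Tmsb10) and 0 fell, with a median of 1.12. Cdh5 and Pecam1 of this list are genes of the rule. The actin-sequestering Tmsb10 went from 16 UMIs in 15 cells to 43 in 19 cells, a ratio of 2.98 (1.65 to 5.67), against 2.17 in Plvap-positive cells.

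Col4a1, Col4a2 and Sparc, genes of the basement membrane and its assembly, rose in Plvap-positive cells and did not reach 2-fold in Ehd3-positive cells. Of 18 listed 10 were compared, 1 rose (Mgp) and 0 fell, with a median of 1.205. Col4a1 was at 639 and 676 CPM, a ratio of 1.06 (0.898 to 1.25), against 539 and 1146 CPM in Plvap-positive cells, a ratio of 2.13 (1.99 to 2.28). Sparc, a collagen-binding matrix protein, had a ratio of 1.11 (1.003 to 1.23) against 2.22 (2.11 to 2.34). Col4a2 had a ratio of 1.24 (1.03 to 1.49) against 2.22 (2.04 to 2.42). The intervals of the 2 cell groups did not overlap for any of these 3 genes, but the difference between the groups was not tested. These 3 were picked from the 10 compared. The share of all compared genes whose intervals part in this way was not counted, so the difference is not shown to be particular to these genes. Timp3, a metalloproteinase inhibitor, went the other way in Plvap-positive cells, with a ratio of 0.517 there and 1.15 (1.06 to 1.25) in Ehd3-positive cells.

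**Figure D5:**
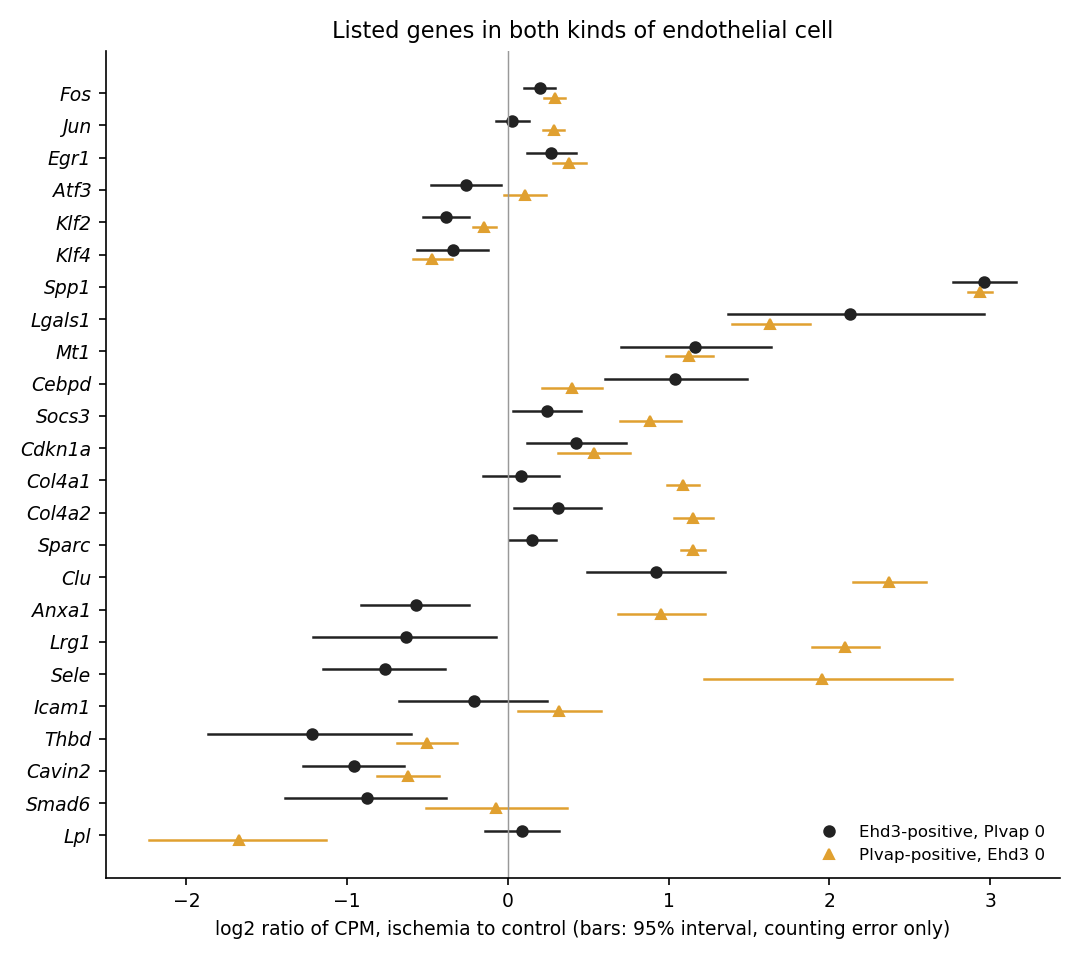
Log2 ratio of CPM, ischemia to control, in Ehd3-positive cells and in Plvap-positive cells without Ehd3 of the same libraries, for 24 listed genes with 95% intervals. Spp1 and Mt1 lie near each other in both cell groups, whereas Sele and Lrg1 lie below 0 in Ehd3-positive and above 0 in Plvap-positive cells.

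Of the list of S100, annexin and LRG1 genes 13 of 15 were compared, 3 rose and 0 fell, with a median of 0.994. Lrg1, a modulator of TGF-beta signaling, was at 155 and 100 CPM, a ratio of 0.645 (0.432 to 0.952). In Plvap-positive cells it was at 107 and 456 CPM, a ratio of 4.28 (3.71 to 4.96). Anxa1 (annexin A1) was at 420 and 282 CPM, a ratio of 0.672 (0.531 to 0.846), against 1.93 (1.60 to 2.34) in Plvap-positive cells. Clu (clusterin, a secreted chaperone) was at 155 and 294 CPM, a ratio of 1.89 (1.41 to 2.55), against 5.16 (4.42 to 6.06). These 3 genes were thus higher in the ischemic Plvap-positive cells by more than in the Ehd3-positive ones, of which Lrg1 and Anxa1 were lower in ischemia.

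The 3 genes of that list that rose were Vim, Lgals1 and Spp1. Spp1 (osteopontin) had 244 control and 1715 ischemic UMIs, at 513 and 3999 CPM, a ratio of 7.80 (6.82 to 8.96). The ratio was 7.66 in Plvap-positive cells and 7.80 in cells outside the endothelium, where Spp1 rose from 3397 to 26485 CPM. After thinning, Spp1 was detected in 41.8% and 93.3% of Ehd3-positive cells and in 65.5% and 97.9% of proximal tubule cells. The levels in Ehd3-positive cells were below those of cells outside the endothelium in both libraries, and the part of free RNA in them was not tested. Lgals1 (galectin-1) rose from 18 to 71 UMIs, a ratio of 4.38, with 54.9% of the ischemic UMIs in 1 cell, and had a ratio of 1.53 with Plvap allowed below Ehd3.

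The IL-1 receptor, for which the libraries were made, was detected at a low level. Il1r1 had 10 UMIs in 9 of 67 control cells and 8 UMIs in 6 of 46 ischemic cells, or 21.01 (10.1 to 38.6) and 18.7 CPM (8.05 to 36.8), a ratio of 0.888 (0.305 to 2.499). Its signaling genes were also sparse, so that 1 of the 16 listed could be compared, the kinase gene Irak1, with 40 and 21 UMIs and a ratio of 0.583. The ligand Il1b and the antagonist Il1rn had 0 UMIs in the Ehd3-positive cells of both libraries, below the same floor as Rgcc.

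Of the NF-kappaB and cytokine list 7 of 21 genes were compared, 1 rose and 0 fell, with a median of 1.18. Cebpd, an acute phase transcription factor, rose from 143 to 294 CPM, a ratio of 2.06 (1.52 to 2.81), against 1.32 (1.16 to 1.502) in Plvap-positive cells and 2.71 outside the endothelium. In cells with at least 3 Ehd3 UMIs the Cebpd ratio was 1.76 (1.27 to 2.46), short of 2-fold, and it was 1.21 with Plvap allowed below Ehd3. Socs3, the feedback inhibitor of cytokine signaling, was at 756 and 896 CPM, a ratio of 1.18 (1.02 to 1.37), against 147 and 272 CPM in Plvap-positive cells. Csf1, the macrophage growth factor, had a ratio of 0.572. Of 26 interferon and MHC class I genes 13 were compared and 0 rose or fell (median 1.07).

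Immediate early genes were high in both libraries, and enzymatic dissociation is known to induce them. Summed over the list they were at 19052 and 19988 CPM, against 8174 and 9815 CPM in Plvap-positive cells of the same libraries. The part of dissociation in these levels was not tested. Of 18 listed 15 were compared, 0 rose or fell and the median was 1.04. Fos was at 3548 and 4067 CPM (1.15), Jun at 3363 and 3426 CPM (1.02) and Egr1 at 1424 and 1719 CPM (1.21). Of 17 heat shock and unfolded protein genes 15 were compared, 1 rose and 0 fell (median 1.16). The gene that rose was Xbp1, a factor of the unfolded protein response, from 34 UMIs in 23 cells to 63 in 24 cells, a ratio of 2.06 (1.33 to 3.22), against 2.44 in Plvap-positive cells. In cells with at least 3 Ehd3 UMIs the Xbp1 ratio was 1.72 (1.04 to 2.86), short of 2-fold. In the list of hypoxia, glycolysis and metallothionein genes 11 of 19 were compared, 1 rose and 0 fell (median 1.11). The metallothionein gene Mt1 rose from 124 to 278 CPM, a ratio of 2.24 (1.63 to 3.11), with 35 cells carrying it in each library, and the ratio was 2.85 outside the endothelium.

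The remaining endothelial lists held no gene that rose or fell. Shear-responsive and other transcription factors had 17 of 20 compared and a median of 1.03, with Klf2 at 2050 and 1572 CPM (0.767, 0.694 to 0.847) and Klf4 at 0.788 (0.675 to 0.919). The vasoactive list had 8 of 16 compared and a median of 0.969, with the adrenomedullin receptor Calcrl at 0.624 and endothelin-converting Ece1 at 1.57. The S1P and lipid uptake list had 8 of 13 compared and a median of 1.14. Fabp4, also a peritubular marker, was the highest there at 1.62 (1.45 to 1.80). Of the peritubular markers 4 of 8 were compared, with a median of 0.766 and Igfbp5 at 0.601 (0.538 to 0.671), against 0.489 in Plvap-positive cells. The p53 and apoptosis list had 7 of 15 compared and a median of 1.14, with the cell cycle inhibitor Cdkn1a at 1.34 (1.09 to 1.66). The cell cycle list had 4 of 18 compared and a median of 1.13, and the ribosomal and RNA quality list 14 of 14 and a median of 1.05.

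Markers of other cells were summed in the same cells. Podocyte markers gave 86.1 and 182 CPM over 10 genes, with 2 at 0 in each library, and at least 3 such UMIs lay in 4 control and 9 ischemic cells. Mesangial and mural markers gave 33.6 and 133 CPM, with 5 and 1 of 10 at 0, and 1 control and 4 ischemic cells had at least 3 UMIs. Leukocyte markers gave 16.8 and 23.3 CPM, with 8 of 13 at 0 in each (Ptprc by the rule), and venous and lymphatic markers 48.3 and 74.6 CPM, with 3 and 4 of 8 found at 0. None of the genes of these 4 lists had enough UMIs to compare. Their part in the ratios above was not tested beyond the cells left out.

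Proximal tubule markers gave 5943 and 5860 CPM, with 10 of 12 compared, 0 risen and 1 fallen (median 0.812). In ischemia 1112 of the 2513 UMIs of these markers were in the deepest cell. Per cell the median sum was 5232 CPM in control and 3675 CPM in ischemia. The list includes Lrp2 and Slc34a1, genes of the rule. The gene that fell was the endocytic receptor Lrp2, itself used in the rule, at 126 and 56 UMIs, a ratio of 0.493 that became 0.584 in cells with at least 3 Ehd3 UMIs. Loop and distal tubule markers gave 1260 and 1033 CPM, with 3 of 10 compared, 0 risen and 1 fallen (median 0.852). There Calb1, a calcium-binding protein of the distal tubule, fell from 43 to 8 UMIs. Platelet and erythroid markers had 4 of 9 compared, all of them globin genes that fell, with a median of 0.117, and every control UMI of these 4 genes was in 1 cell.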

How the data were processed

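The authors deposited raw UMI counts per gene and barcode for each library, made with Cell Ranger 7.0.0 on the mm10 genome from 10x Genomics 3′ libraries. The rule for the cells, the 32 gene lists and the comparisons were chosen with earlier results of these data known. UMIs were summed over the chosen cells of a library and scaled to CPM, with exact 95% intervals, and with 1 library per group no test across genes was run. Genes with at least 50 UMIs over both libraries were compared, and a ratio of at least 2-fold was counted as a change. A sum under 3 UMIs was set to 3 in ratios. Shares were compared after thinning each cell to 1000 UMIs (seed 42). Named genes were the extremes and most abundant members of the lists, the 12 highest and 12 lowest ratios of at least 2-fold with a level at or above that of cells outside the endothelium, and the 10 most different from Plvap-positive cells in each direction, without genes of the rule. Further list members, such as Sost and Il1r1, were named after their values were seen, and some genes that the rule names are not reported here. Scrublet (scanpy 1.11.5) called 0 of 12586 and 0 of 13116 cells doublets, so the caller had not worked and doublets remain. Leaving out the 8% of cells with the highest scores, with 7 control and 2 ischemic Ehd3-positive cells among them, was an alternative, as were other limits for depth, mitochondrial share, Ehd3, Plvap and the endothelial sum, other scalings and leaving out single cells. Python 3.11.15, numpy 2.4.6, pandas 2.3.3, scipy 1.17.1 and matplotlib 3.10.9 were used, and the scripts were tested on simulated counts.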

Additional observations from a re-analysis of the deposited data

Results flagged for a closer look

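Only the listed and named genes that had been compared were searched here, and the share over all compared genes was not counted. For 9 of those searched, the ratios of ischemia to control in Ehd3-positive and in Plvap-positive, Ehd3-negative endothelial cells lay on opposite sides of 1. Each ratio had an interval on its own side, and at least 1 of the 2 was at least 2-fold. With 1 library per group this difference was not tested. Epha6 had a ratio of 5.03 (3.45 to 7.52) against 0.293 (0.201 to 0.420), and 2.59 without its top cell. Aqp1 had a ratio of 3.39 (1.99 to 6.02) against 0.732 (0.687 to 0.781), with 55.2% of its ischemic UMIs in 1 cell. Lrg1 had a ratio of 0.645 (0.432 to 0.952) against 4.28 (3.71 to 4.96), and Sele of 0.587 (0.450 to 0.762) against 3.87 (2.33 to 6.78). The tubular glucose transporter gene Slc5a2, with 22 and 37 UMIs, had a ratio of 1.87 (1.07 to 3.32) against 0.413 (0.304 to 0.559), and 29 of the 37 were in the deepest ischemic cell.

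The globin genes Hbb-bs, Hbb-bt, Hba-a1 and Hba-a2 had ratios of 0.0927, 0.114, 0.142 and 0.120 in Ehd3-positive cells and rose in Plvap-positive cells, where Hbb-bs went from 3.40 to 1557 CPM. All 623 control Hbb-bs UMIs were in 1 of the 67 cells. Without that cell the control cells had 0 UMIs of these genes, and the ratios were at least 19.0, 2.55, 13.1 and 8.39 against a floor of 3 UMIs. Only 2 of the 46 ischemic cells carried an Hbb-bs UMI, so its ratio rests on few cells in both libraries.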

How the results depend on the processing

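The number of Ehd3-positive cells ranged from 51 to 82 in control and from 31 to 56 in ischemia over the alternatives, within 1.5 times 67 and 46. Against 65 genes at least 2-fold higher and 37 lower, the counts were 128 and 77 with Plvap allowed below Ehd3, 5 and 5 with each cell thinned to 1000 UMIs (300 genes compared), 31 and 22 without the cell holding most UMIs of each gene, 339 and 192 at a minimum of 20 UMIs, 28 and 16 at 100 UMIs, and 302 and 131 at 1.5-fold. Under the other alternatives 47 to 95 genes rose and 29 to 53 fell. Similar counts did not mean the same genes. Of the 65 and 37, 27 and 26 were called again with Plvap below Ehd3, and 40 and 30 without each library's deepest cell. Without cells carrying at least 2 podocyte or mural UMIs 20 and 14 were called again, and after thinning 1 and 2, with fewer genes compared in both. At a minimum of 1000 UMIs per cell all 65 and 37 were called again. Ratios that turned direction were those of Plcl1 (0.928) and Prkca (0.726) with Plvap below Ehd3, 3110099E03Rik (1.12) and Slc45a4 (0.638) after thinning, Aqp1 (0.591) and Cldn5 (0.788) at 2 or more Ehd3 UMIs, the same genes (0.674 and 0.578) at 3 or more, Mgp (0.484) without cells carrying at least 2 podocyte or mural UMIs, and Hbb-bt (2.55), Hbb-bs (19.0), Hba-a1 (13.1) and Hba-a2 (8.39) without their top cell, against a floor of 3 UMIs. The cause was not tested, except that thinning leaves fewer UMIs and genes and the last 4 had all control UMIs in 1 cell. Without cells carrying podocyte or mural UMIs, Cdk8 (0.506) was short of 2-fold. The split at 3 Ehd3 UMIs, leaving out each library's deepest cell and leaving out each gene's top cell were chosen after seeing the data. Depth limits genes under 50 UMIs, among them Sost and Il1r1. No paired analysis was possible because each group has 1 library and no test was run.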

Other observations

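A further 59 control and 53 ischemic endothelial cells held at least 3 UMIs each of Ehd3 and Plvap and were outside the rule. They had medians of 6814 and 7751 UMIs. Plat was at 1363 and 867 CPM in them, Igfbp5 at 2242 and 1463 CPM, and Gata5 had 37 and 10 UMIs. They also held Rgcc at 852 and 976 CPM and Igfbp3 at 231 and 386 CPM, genes at or near 0 in Ehd3-positive, Plvap-negative cells. Whether such a barcode held more than 1 cell was not tested.

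Endothelial cells with neither Ehd3 nor Plvap numbered 53 in control and 66 in ischemia. Vim was at 1193 and 2430 CPM in them, Mgp at 5300 and 1977 CPM and Cldn5 at 1047 and 1278 CPM. Plat was at 1008 and 449 CPM, detected in 25 and 23 of these cells.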
